A study of Mus musculus with 15 samples.

Results

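Genes of insulin-like growth factor (IGF) and insulin signalling were followed in cultured mouse neural stem and progenitor cells in which the histone acetyltransferase gene Kat6b was lost or overexpressed. The genes were taken by symbol from the deposited count files: the IGF binding protein genes Igfbp2, Igfbp3, Igfbp4, Igfbp5, Igfbp6 and Igfbp7, the receptor genes Igf1r and Insr, and the adaptor genes Irs1 and Irs2. All 10 were found among 26263 named genes, and all 10 were among the 15261 genes that had enough counts to be tested. The cells came from the dorsal telencephalon, the roof of the embryonic forebrain, of E12.5 embryos. They were grown as floating neurospheres in a medium with 25 µg/ml insulin, 20 ng/ml EGF and 10 ng/ml FGF, so insulin was supplied to every group. There were 15 RNA libraries in 4 groups. Wild-type cells (WT_B6, n = 3) and Kat6b-/- cells (KO_B6, n = 4) were on a C57BL/6 background. Wild-type cells (WT_FvB, n = 2) and cells with the transgene Tg(Kat6b) (Tg_FvB, n = 6) were on a mixed FVBxBALB/c background, on which the transgenic mice were viable. The labels give neither the deleted part of Kat6b nor the promoter of the transgene. Many samples share a litter number (843, 844, 873 or 929), and embryo numbers differ within a litter with 1 exception given below. It is not stated whether cultures were pooled or passaged together. The p-values below therefore measure the spread between these libraries, part of which may be technical.

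IGF binding proteins are secreted proteins that hold IGFs outside the cell. They can keep the ligand from its receptor or deliver it there, and proteases that cut them set the ligand free. The IGF1 receptor and the insulin receptor are related tyrosine kinases that phosphorylate the adaptors IRS1 and IRS2, from which the PI3K, AKT and mTOR pathway is driven and FOXO transcription factors are kept out of the nucleus. In the embryonic forebrain this signalling is known for its part in the growth and survival of neural progenitors. IGFBP7, unlike the other family members studied here, binds IGFs only weakly.

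Igfbp2 and Igfbp5 are neighbours on chromosome 1 and point towards each other. In RefSeq (assembly GRCm38.p6) Igfbp2 spans chr1:72824480-72852474 on the plus strand and Igfbp5 chr1:72858065-72874865 on the minus strand, with 5.59 kb between their ends. Igfbp3 lies at chr11:7206086-7215498 on the minus strand, 3.539 kb from Igfbp1. Igfbp4 lies on the same chromosome at chr11:99040005-99052655 on the plus strand, and Irs1 at chr1:82233105-82291439 on the minus strand. The 250 bases before the annotated start are shown for the 5 genes that passed the knockout test described below, as RefSeq gives them for GRCm38.p6, 5′ to 3′ on the strand of the gene. Capitals mark matches, on either strand, to the core TATAAA, to the GC box GGGCGG or to the E-box CACGTG. A FOXO-type motif, GTAAACA, was searched too. None of the marked matches overlap each other. RefSeq lists 2 starts for Igfbp2, and the window of the upstream one is shown. The windows of Igfbp3 and Igfbp4 begin at a start inside the longest annotated gene span.

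Igfbp2, chr1:72824230-72824479, plus strand: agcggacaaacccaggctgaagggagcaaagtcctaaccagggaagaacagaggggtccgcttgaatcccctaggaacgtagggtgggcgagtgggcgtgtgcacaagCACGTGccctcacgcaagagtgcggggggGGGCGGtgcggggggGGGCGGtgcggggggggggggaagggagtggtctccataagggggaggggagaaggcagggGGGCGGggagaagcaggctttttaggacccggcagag
Igfbp3, chr11:7213924-7214173, minus strand: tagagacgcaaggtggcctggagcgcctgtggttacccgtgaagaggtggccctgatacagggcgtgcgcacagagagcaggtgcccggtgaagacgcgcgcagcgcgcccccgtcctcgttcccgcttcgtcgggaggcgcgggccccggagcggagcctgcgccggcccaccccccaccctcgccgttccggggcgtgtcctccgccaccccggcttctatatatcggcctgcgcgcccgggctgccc
Igfbp4, chr11:99040994-99041243, plus strand: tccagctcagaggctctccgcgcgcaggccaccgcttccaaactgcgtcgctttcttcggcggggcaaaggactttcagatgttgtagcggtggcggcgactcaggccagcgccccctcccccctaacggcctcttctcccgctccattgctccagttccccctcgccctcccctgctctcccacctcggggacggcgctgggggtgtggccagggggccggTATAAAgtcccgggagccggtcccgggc
Igfbp5, chr1:72874866-72875115, minus strand: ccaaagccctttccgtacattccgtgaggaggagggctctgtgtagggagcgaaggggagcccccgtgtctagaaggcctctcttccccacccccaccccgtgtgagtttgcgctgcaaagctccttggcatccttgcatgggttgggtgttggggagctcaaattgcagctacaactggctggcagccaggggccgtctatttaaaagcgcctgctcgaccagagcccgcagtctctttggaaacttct
Irs1, chr1:82291440-82291689, minus strand: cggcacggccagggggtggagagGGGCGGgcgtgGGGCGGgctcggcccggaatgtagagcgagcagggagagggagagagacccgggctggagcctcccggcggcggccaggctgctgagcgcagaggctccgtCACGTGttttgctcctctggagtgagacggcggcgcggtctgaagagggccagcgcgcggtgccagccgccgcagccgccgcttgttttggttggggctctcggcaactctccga

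The windows differed in base composition and in motifs. Of the 5 windows shown, that of Igfbp5 had the lowest GC content, 58.8%, with 10 CpG dinucleotides, and held none of the motifs. That of Igfbp2 had 67.2% GC, 14 CpG, 3 GC boxes and 1 E-box. The window of the other Igfbp2 start, chr1:72825137-72825386, had 56.4% GC, 11 CpG and none of the motifs. The window of Irs1 had 72.4% GC, 28 CpG, 2 GC boxes and 1 E-box. The window of Igfbp4 had 69.2% GC, 22 CpG and a TATAAA at position -28 from the start, while that of Igfbp3 had 73.2% GC, 32 CpG and no match. GTAAACA was found in none of the 5. Among 32851 promoter windows of the same length, 12.4% held TATAAA, 32.7% GGGCGG, 6.02% CACGTG and 3.17% GTAAACA, and the median window had 6 CpG (quartiles 2 and 16). A match describes the letters only.

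Libraries held 12336303 to 62819028 counts in named genes, and every KO_B6 library (39413502 or more) was deeper than every WT_B6 library (31067022 or fewer). Some libraries stood apart or lay very close together. The 3 WT_B6 libraries differed from each other by a coefficient of biological variation of only 0.0172 to 0.0359, and KO_B6 replicates 2 and 3, the 2 WT_FvB libraries, and Tg_FvB replicate 2 with replicates 1 and 3 were similarly close, although these pairs differed beyond counting noise. Adding up such near-identical libraries leaves 1, 3, 1 and 4 profiles in WT_B6, KO_B6, WT_FvB and Tg_FvB, and results are also given on that basis. The same litter and embryo number is given for WT_B6 replicate 1 and for WT_FvB replicate 2. Their litter number, 844, is otherwise carried by FvB samples only. The titles of the Tg_FvB samples name them knockouts while their genotype field names them transgenic, and the column headers of Tg_FvB replicates 5 and 6 call these libraries FvB wild types. On the first principal component (49.1% of the variance) these 2 libraries lay at -1.49 and 2.37, between the other FvB libraries (21.2 to 36.5) and the B6 libraries (-38.7 to -12.8). Markers of neural stem cells were high, with summed levels of 4798 to 7687 CPM (counts scaled by library total with the TMM method) over all libraries. The dorsal marker Emx1 had at most 8 counts in any library, whereas Emx2 and Lhx2 were expressed. The defining endothelial markers Cdh5 and Cldn5, the mural markers Rgs5, Kcnj8, Abcc9 and Anpep, and 7 of 8 microglial and blood markers had at most 10 counts in every library. The whole lists summed to 1.80 to 6.65 CPM for endothelial, 5.08 to 20.4 for mural, 1.70 to 9.66 for meningeal fibroblast and 0.0785 to 0.456 for microglial and blood markers. The highest counts in them were of Acta2 (up to 606), Foxc1 (196), Pdgfrb (137), Esam (104) and Kdr (94). Astrocyte and oligodendrocyte lineage markers were both expressed, with summed levels of 2028 to 3156 and 2115 to 3204 CPM.

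Kat6b itself was lower in the knockout and higher with the transgene. It measured 84.2 ± 0.778 CPM in WT_B6 (SD, n = 3) and 63.4 ± 2.22 CPM in KO_B6 (n = 4), which is 75.2% of wild type. The groups did not overlap (exact 2-sided permutation p = 0.0286, the smallest that 35 splits allow), but the drop did not pass the test across all genes (log2 change -0.41 ± 0.17 SE, edgeR adjusted p = 0.0571). A count over the whole gene does not show which part of the transcript was left. On the FvB background Kat6b measured 53.1 ± 1.80 CPM in wild type (n = 2) against 242.8 ± 54.2 CPM with the transgene (n = 6), or 4.57-fold more (log2 change 2.19 ± 0.21, edgeR adjusted p = 2.38e-04). Tg_FvB replicate 5 had the lowest level of the transgenic libraries, 139.6 CPM, and replicate 6 the highest, 288.9 CPM. Both replicates, whose columns are headed as wild types, were thus above the WT_FvB libraries (54.4 and 51.9 CPM).

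In the knockout the binding protein genes moved in opposite directions: Igfbp2, Igfbp3 and Igfbp4 rose and Igfbp5 fell. Of the 10 genes, 4 passed edgeR's quasi-likelihood test (Benjamini-Hochberg adjusted p under 0.05 over all genes) as higher and 1 as lower. Among all genes tested the knockout comparison called 45.8%, with 24.8% higher and 20.9% lower, so a share of 5 in 10 was close to the background. The CPM ranges of knockout and wild type did not overlap for 6 of the 10 genes, against 56.3% of all genes. The median log2 change of the 10 genes was 0.20, against 0.02 for all genes. In this bulk RNA, a change in the number of cells of a type and a change in RNA per cell cannot be told apart.

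Igfbp2, the binding protein known as abundant in developing brain, had by far the highest level of the family. It stood at 728.0, 686.6 and 685.9 CPM in the WT_B6 libraries and at 988.8, 1214, 1145 and 1201 CPM in the KO_B6 libraries. The lowest knockout library was well above the highest wild type, and Igfbp2 rose 1.62-fold (log2 change 0.70 ± 0.12, edgeR adjusted p = 2.78e-04).

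Igfbp3, which carries most circulating IGF in serum, varied little among the controls. The WT_B6 libraries had 197.6, 198.4 and 199.6 CPM and the KO_B6 libraries 411.0, 479.6, 478.4 and 550.0 CPM. Every knockout library was thus above every wild type, and Igfbp3 rose 2.42-fold (log2 change 1.27 ± 0.14, edgeR adjusted p = 1.62e-05). The low sums of endothelial and mural markers were also lowest in WT_B6, with medians of 1.85, 3.26, 6.48 and 5.02 CPM for endothelial and 5.19, 6.43, 14.6 and 17.5 CPM for mural markers in WT_B6, KO_B6, WT_FvB and Tg_FvB. In the knockout 2 of 4 tested endothelial and 1 of 2 tested mural markers were higher, while Cdh5, Cldn5, Rgs5, Kcnj8, Abcc9 and Anpep were near 0 in all groups. Their part in the result was not tested.

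Igfbp4, a binding protein cut by the protease PAPP-A, had the largest change of the 5 and varied the most in the knockout. Its levels were 85.1, 80.5 and 80.5 CPM in WT_B6 and 132.5, 277.3, 266.8 and 182.3 CPM in KO_B6. Replicates 2 and 3, which are a near-identical pair, were the highest, and the knockout libraries differed from each other by more than the lowest differed from wild type. Igfbp4 rose 2.62-fold (log2 change 1.39 ± 0.23, edgeR adjusted p = 2.52e-04).

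Igfbp5, the most conserved family member and one that also binds extracellular matrix, was the only one of the 10 that passed the test as lower. It had 307.5, 290.3 and 288.5 CPM in WT_B6 and 164.9, 175.8, 174.4 and 214.5 CPM in KO_B6. The groups did not overlap and the level in the knockout was 0.617 of wild type (log2 change -0.70 ± 0.12, edgeR adjusted p = 4.21e-04). Its neighbour Igfbp2 moved the other way in each knockout library. The astrocyte markers that passed a test had the direction of Igfbp5. In the knockout 4 of 6 passed as lower and none as higher, where 20.9% of all genes were lower. With the transgene 3 passed as lower and none as higher, against 1.17% lower among all genes. In WT_FvB against WT_B6, 4 passed as higher and none as lower, against 25.4% higher among all genes. Against 8056, 2793 and 8465 of all 15261 genes, the edgeR unadjusted p was under 0.05 for 4, 3 and 4 of the 6. Their summed level was 2508 to 2517 CPM in WT_B6, 2028 to 2601 in KO_B6, 3073 to 3156 in WT_FvB and 2692 to 3097 in Tg_FvB, and none of the 6 was near 0. Aldh1l1 went against this between the wild types, at 281.4 CPM in WT_B6 and 190.3 CPM in WT_FvB, but did not pass. Slc1a3 (2168 to 2184 CPM) and Aldoc (409.1 to 419.5 CPM) were slightly higher with the transgene. KO_B6 replicate 1 had the highest astrocyte sum of the B6 libraries, 2601 CPM, but the least Igfbp5, 164.9 CPM. The part of the astrocyte markers in the result was not tested. The neural stem and progenitor markers had 5 of 8 lower and 1 higher in the knockout.

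The last pair of binding proteins was barely expressed. Igfbp6, which prefers IGF2 as ligand, had 2 to 14 counts per library. It entered the test only because 2 Tg_FvB libraries reached the 0.326 CPM that the filter required in 2 libraries, and its log2 change in the knockout, -1.16 ± 0.52, did not pass (edgeR adjusted p = 0.0833). Igfbp7 had 4 to 43 counts per library and measured 0.809 ± 0.0616 CPM in WT_B6 and 0.775 ± 0.143 CPM in KO_B6, a difference within the spread (log2 change -0.06 ± 0.29, edgeR adjusted p = 0.879). Igfbp7 shares its locus with Polr2b on the other strand. Irs1, Irs2 and Insr also have an annotated gene on the opposite strand, and the sources used here do not say whether counting used strand.

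**Figure D1:**
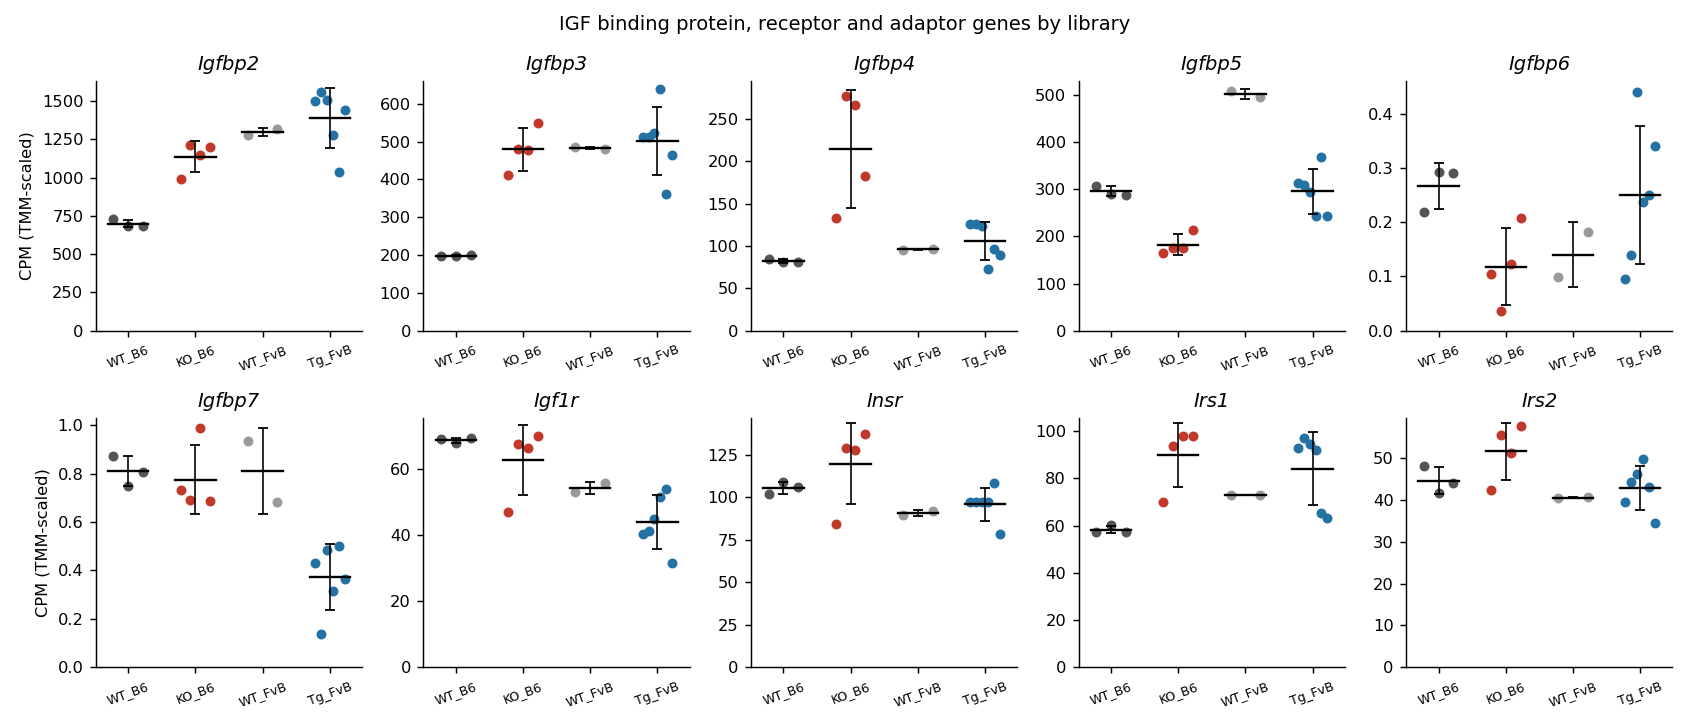
Each point is 1 library, with its level in CPM (TMM-scaled, linear axis from 0) in the 4 groups; the line is the mean and the bar is the SD. Igfbp2, Igfbp3 and Igfbp4 sit higher in KO_B6 than in WT_B6, Igfbp5 sits lower in both modified groups than in their wild types, and Igfbp6 and Igfbp7 lie below 1 CPM in all libraries.

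Neither receptor gene passed the knockout test. Igf1r, the receptor for both IGFs, had 69.2, 67.9 and 69.4 CPM in WT_B6 and 47.0, 67.8, 66.4 and 70.3 CPM in KO_B6. Only replicate 1 was low, the other knockout libraries lay at the wild-type level, and the log2 change was -0.13 ± 0.15 (edgeR adjusted p = 0.520). Insr, the insulin receptor, had 102.0, 108.9 and 106.2 CPM in WT_B6 and 84.6, 129.4, 127.8 and 137.4 CPM in KO_B6. Here 3 knockout libraries were above and replicate 1 was below every wild type, for a log2 change of 0.18 ± 0.13 (edgeR adjusted p = 0.284). Without replicate 1 the change of Insr was 0.29 and passed (edgeR adjusted p = 0.0159, range 0.0159 to 0.858 over 14 alternatives). KO_B6 replicate 1 was the lowest knockout library for 8 of the 10 genes, all but Igfbp6 and Igfbp7. In that library the 6 astrocyte markers summed to 2601 CPM and the 8 stem cell markers to 6975 CPM, against 2028 to 2038 and 5725 to 6116 CPM in the other 3 knockout libraries and 2508 to 2517 and 7139 to 7145 CPM in WT_B6. The part of these markers in the results was not tested.

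Of the adaptors, Irs1 rose in the knockout and Irs2 did not pass. Irs1 had 57.5, 60.0 and 57.4 CPM in WT_B6 and 69.8, 93.5, 97.9 and 98.0 CPM in KO_B6. All 4 knockout libraries were above wild type, replicate 1 by the least, and the mean was 1.54-fold higher (log2 change 0.62 ± 0.15, edgeR adjusted p = 0.00411). Irs2 had 48.1, 41.7 and 43.8 CPM in WT_B6 and 42.2, 55.4, 51.1 and 57.5 CPM in KO_B6. Its ranges overlapped and the log2 change was 0.21 ± 0.12 (edgeR adjusted p = 0.148).

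The knockout changes were also present within each of the litters that held both genotypes. In litters 843 and 929, each with 1 wild-type and 2 knockout libraries, the log2 changes were 0.68 and 0.77 for Igfbp2, 1.17 and 1.37 for Igfbp3, and 1.35 and 1.48 for Igfbp4. For Igfbp5 they were -0.77 and -0.57, and for Irs1 0.44 and 0.77. Insr differed between the litters, at -0.03 and 0.32. No test was run within a litter, where wild type is a single library. The litters are not clearly separate repeats. Their wild-type libraries were near-identical to each other (coefficient of biological variation 0.0172). The same holds for KO_B6 replicate 2 of litter 843 and replicate 3 of litter 929 (0.0269).

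With near-identical libraries added up, which leaves 1 wild-type and 3 knockout profiles, the 5 changes kept their direction and none passed. The edgeR adjusted p-values were then 0.164 for Igfbp2, 0.109 for Igfbp3, 0.148 for Igfbp4, 0.156 for Igfbp5 and 0.293 for Irs1, each the highest over 14 alternatives, and the lone wild-type profile was assumed to vary like the other groups. In the other 13 alternatives all 5 passed. Over the 14, the adjusted p reached down to 2.70e-07 for Igfbp2, 5.46e-16 for Igfbp3, 1.27e-08 for Igfbp4, 4.01e-07 for Igfbp5 and 3.88e-04 for Irs1.

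With the Kat6b transgene only Igfbp5 passed among the 10 genes, and it fell. The transgene comparison called 1.85% of all genes, with 0.688% higher and 1.17% lower. By unadjusted p under 0.05, 2 of the 10 genes would pass, Igfbp5 and Igfbp7. Among all 15261 genes tested, 2793 would pass on that basis. None of the 10 was called higher by edgeR or by DESeq2. The median log2 change was 0.08, against 0.01 for all genes.

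Igfbp5 stood at 509.0 and 495.2 CPM in the WT_FvB libraries and between 242.5 and 368.7 CPM in the 6 Tg_FvB libraries (median 301.4). No transgenic library reached the wild types, and the mean was 0.588 of theirs (log2 change -0.77 ± 0.13, edgeR adjusted p = 0.0141). Replicate 5, the library with the least Kat6b of the 6, had the most Igfbp5. Replicate 4, with the next lowest Kat6b (228.7 CPM), had the least Igfbp5 (242.5 CPM). Within litter 844, with 2 libraries of each genotype, the level was 0.620 of wild type. Tg_FvB replicates 3 to 6 were of litter 873, which held no wild type, so for them transgene and litter cannot be told apart. Without replicates 5 and 6 the log2 change was -0.80 (edgeR adjusted p = 0.00138). The call rested on having both wild-type libraries: without WT_FvB replicate 1 the adjusted p was 0.279 and without replicate 2 it was 0.180. It was 0.112 with only these 2 groups in the fit, 0.153 with litter as a covariate and 1.00 with near-identical libraries added up, while the log2 change stayed between -0.85 and -0.69 in all 16 alternatives. Adjusted p-values over these alternatives ran from 1.37e-05 to 1.00.

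Igfbp7 was at 0.936 and 0.684 CPM in WT_FvB and between 0.139 and 0.500 CPM in Tg_FvB (median 0.398). The groups did not overlap, as for 16% of all genes in this comparison, but these levels stand for 4 to 19 counts per library. The log2 change of -1.14 ± 0.35 did not pass (edgeR adjusted p = 0.106).

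The 3 binding protein genes that rose in the knockout did not pass with the transgene. Igfbp2 was at 1281 and 1318 CPM in WT_FvB and from 1040 to 1561 CPM in Tg_FvB (median 1472), with 4 transgenic libraries above and 2 below both wild types (log2 change 0.10 ± 0.12, edgeR adjusted p = 0.710). Igfbp3 was at 484.6 and 480.4 CPM in WT_FvB and from 360.0 to 638.0 CPM in Tg_FvB (median 512.0), and the log2 change was 0.06 ± 0.15 (edgeR adjusted p = 0.869). Igfbp4 was at 95.6 and 96.4 CPM in WT_FvB and from 73.3 to 126.1 CPM in Tg_FvB (median 109.9), for a log2 change of 0.14 ± 0.24 (edgeR adjusted p = 0.784). Tg_FvB replicates 1, 2 and 3, of which replicate 2 is near-identical to each of the others, had 123.4 to 126.1 CPM of Igfbp4 and the other 3 had 73.3 to 96.4 CPM.

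Receptor and adaptor genes did not pass with the transgene. Igf1r had 53.0 and 55.7 CPM in WT_FvB and 31.5 to 54.0 CPM in Tg_FvB (median 43.2), where only replicate 5 reached into the wild-type range (log2 change -0.31 ± 0.17, edgeR adjusted p = 0.334). Insr had 89.6 and 92.0 CPM in WT_FvB and 78.4 to 108.7 CPM in Tg_FvB, with 5 of 6 transgenic libraries above the wild types (log2 change 0.08 ± 0.14, edgeR adjusted p = 0.797). Irs1 split the transgenic libraries. It had 73.0 and 72.9 CPM in WT_FvB, 92.0 to 97.1 CPM in Tg_FvB replicates 1 to 4, and 65.4 and 63.1 CPM in replicates 5 and 6. The columns of replicates 5 and 6 are headed as wild types, but their Kat6b (139.6 and 288.9 CPM) was above WT_FvB. The log2 change of Irs1 was 0.20 ± 0.17 with all 6 (edgeR adjusted p = 0.532) and 0.36 without replicates 5 and 6 (adjusted p = 0.0787, range 0.0787 to 1.00 over 16 alternatives). Irs2 had 40.4 and 40.6 CPM in WT_FvB and 34.4 to 49.6 CPM in Tg_FvB, around the wild-type level (log2 change 0.08 ± 0.13, edgeR adjusted p = 0.775).

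**Figure D2:**
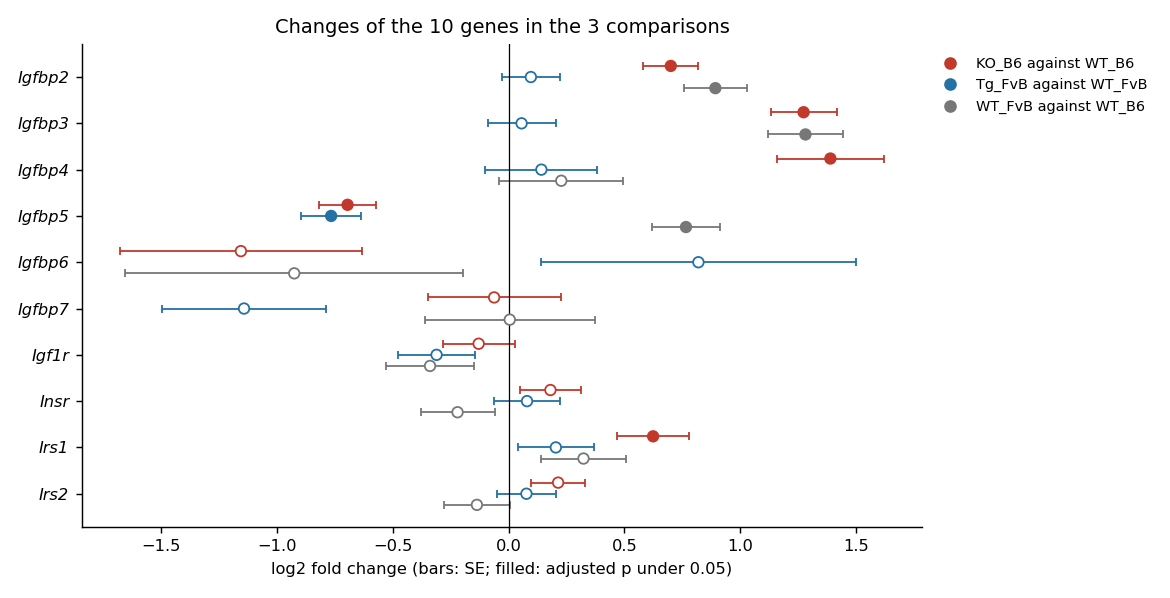
Points are log2 fold changes from edgeR for each gene in 3 comparisons, bars are standard errors, and filled points have an adjusted p under 0.05. Igfbp5 is the only gene with filled points left of 0 for both knockout (-0.70) and transgene (-0.77), and the widest bars belong to Igfbp6, which had 2 to 14 counts per library.

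The wild types of the 2 backgrounds differed in 3 binding protein genes, by amounts like those of the knockout. Background, litter and culture cannot be told apart in this comparison, which called 48.9% of all genes, with 25.4% higher and 23.5% lower in WT_FvB. Igfbp2, Igfbp3 and Igfbp5 passed as higher in WT_FvB and none of the 10 passed as lower in this fit or in DESeq2. With only the 2 wild-type groups in the edgeR fit, 8 of the 10 passed, but 10350 genes passed in all, against 7456 in the main fit. Igfbp4 (0.22) and Irs1 (0.31) were then also higher, and Igf1r (-0.35), Insr (-0.23) and Irs2 (-0.14) lower, on the log2 scale. Ranges did not overlap for 9 of the 10 genes, all but Igfbp7, against 78.3% of all genes. The edgeR log2 differences were 0.89 ± 0.14 for Igfbp2 (adjusted p = 2.01e-04), 1.28 ± 0.16 for Igfbp3 (adjusted p = 6.52e-05) and 0.77 ± 0.15 for Igfbp5 (adjusted p = 8.21e-04). Since WT_B6 is also the control of the knockout, the levels are best set side by side. Igfbp3 averaged 198.5 CPM in WT_B6, 479.8 in KO_B6, 482.5 in WT_FvB and 501.7 in Tg_FvB, so that WT_B6 alone was low. Igfbp2 averaged 700.2, 1137, 1300 and 1389 CPM in the same order. Igfbp5 averaged 295.4, 182.4, 502.1 and 295.2 CPM, and the transgenic cells thus had the same mean level as wild-type C57BL/6 cells. Igfbp4 averaged 82.0, 214.7, 96.0 and 105.7 CPM and was high in the knockout alone. With near-identical libraries added up there is 1 profile per wild type, and no call among the 10 genes held between them.

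Tested directly, the effect of the transgene differed from that of the knockout for 3 of the 10 genes, where 37.3% of all genes passed this test (19.5% with a lower effect of the transgene). The difference on the log2 scale was -0.60 ± 0.17 for Igfbp2 (edgeR adjusted p = 0.0121), -1.22 ± 0.20 for Igfbp3 (adjusted p = 5.87e-04) and -1.25 ± 0.32 for Igfbp4 (adjusted p = 0.00809). For Igfbp5, which fell under both, the difference was -0.07 ± 0.18 (edgeR adjusted p = 0.789). That for Irs1 was -0.42 ± 0.22 (adjusted p = 0.150). Litter as a covariate ended the calls of Igfbp2 (adjusted p = 0.107) and Igfbp4 (0.0892), leaving out WT_FvB replicate 2 ended that of Igfbp2 (0.0593), and adding up near-identical libraries ended all 3 (0.247 to 0.314). The ranges over 22 alternatives were 0.00368 to 0.314 for Igfbp2, 3.72e-07 to 0.247 for Igfbp3 and 8.86e-04 to 0.281 for Igfbp4.

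Levels of different genes were compared as CPM per kb of gene length. In WT_B6 the order was Igfbp2 at 526.4, Igfbp3 at 81.1, Igfbp5 at 50.5, Igfbp4 at 39.7, Insr at 11.3, Irs2 at 11.1, Irs1 at 6.36, Igf1r at 5.74, Igfbp7 at 0.667 and Igfbp6 at 0.207 CPM per kb. Only the neighbours Insr and Irs2 overlapped in range. In KO_B6 Igfbp4 at 103.8 CPM per kb stood above Igfbp5 at 31.2, a reversal of their order in both wild types. The ranges of Irs2, Insr and Irs1 overlapped in KO_B6, as they did in Tg_FvB. In Tg_FvB Igfbp4 and Igfbp5 could not be ordered either, at 51.1 ± 10.9 and 50.4 ± 8.15 CPM per kb (SD, n = 6). In all groups Igfbp2 and Igfbp3 led and Igf1r was followed by Igfbp7 and Igfbp6, whose ranges overlapped in Tg_FvB.

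The summed level of the 6 binding protein genes per length was lowest in WT_B6. It measured 698.6 ± 20.8 CPM per kb in WT_B6, 1187 ± 124 in KO_B6, 1307 ± 16.7 in WT_FvB and 1351 ± 170 in Tg_FvB. Igfbp2 made up 75.4%, 72.1%, 74.7% and 77.1% of this sum in the same order, a narrow range. The share of Igfbp5 was 7.22% in WT_B6 and 2.63% in KO_B6, and 6.56% in WT_FvB and 3.83% in Tg_FvB. The share of Igfbp4 was 5.68% in WT_B6 and 8.63% in KO_B6, and 3.55% and 3.79% in the FvB groups.

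**Figure D3:**
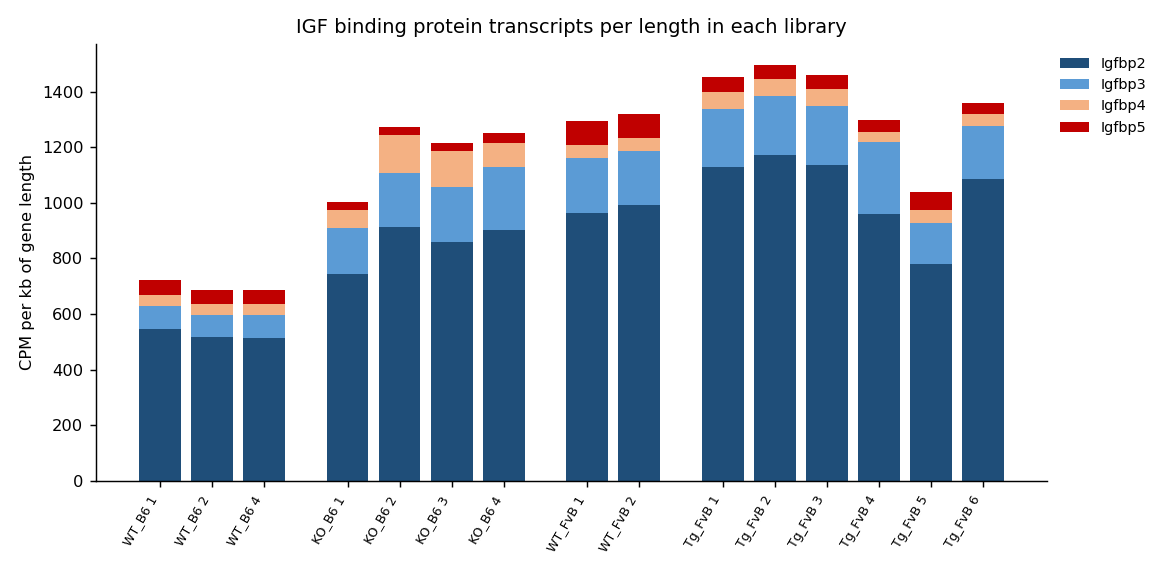
Each bar is 1 library and stacks the CPM per kb of gene length of Igfbp2, Igfbp3, Igfbp4 and Igfbp5; Igfbp6 and Igfbp7 are below 1 CPM per kb and not drawn. The 3 WT_B6 bars are the lowest, Igfbp2 is the largest segment everywhere, and the Igfbp5 segment is thinner in KO_B6 (2.63% of the sum on average) than in WT_B6 (7.22%).

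Ratios within a library do not depend on its depth or scaling and are given as a description. The ratio of Igfbp2 to Igfbp5 per length was 10.4 to 10.5 in WT_B6 and 11.1 to 11.7 in WT_FvB, nearly equal in the wild types despite their different levels of both genes. It was 24.6 to 30.4 in KO_B6 and 12.4 to 26.1 in Tg_FvB, where replicate 5 was the lowest and the other 5 were at 21.1 or more. The ratio of Igf1r to Insr was 0.487 to 0.529 in WT_B6 and 0.399 to 0.434 in KO_B6, without overlap although neither gene passed by itself. In WT_FvB it was 0.462 to 0.473 and in Tg_FvB 0.314 to 0.415, again without overlap. KO_B6 replicate 1, which was low for both receptors, did not stand apart in this ratio, at 0.434. The ratio of Irs1 to Irs2 was 0.524 to 0.631 in WT_B6, 0.724 to 0.840 in KO_B6, 0.787 to 0.792 in WT_FvB and 0.666 to 1.03 in Tg_FvB.

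**Figure D4:**
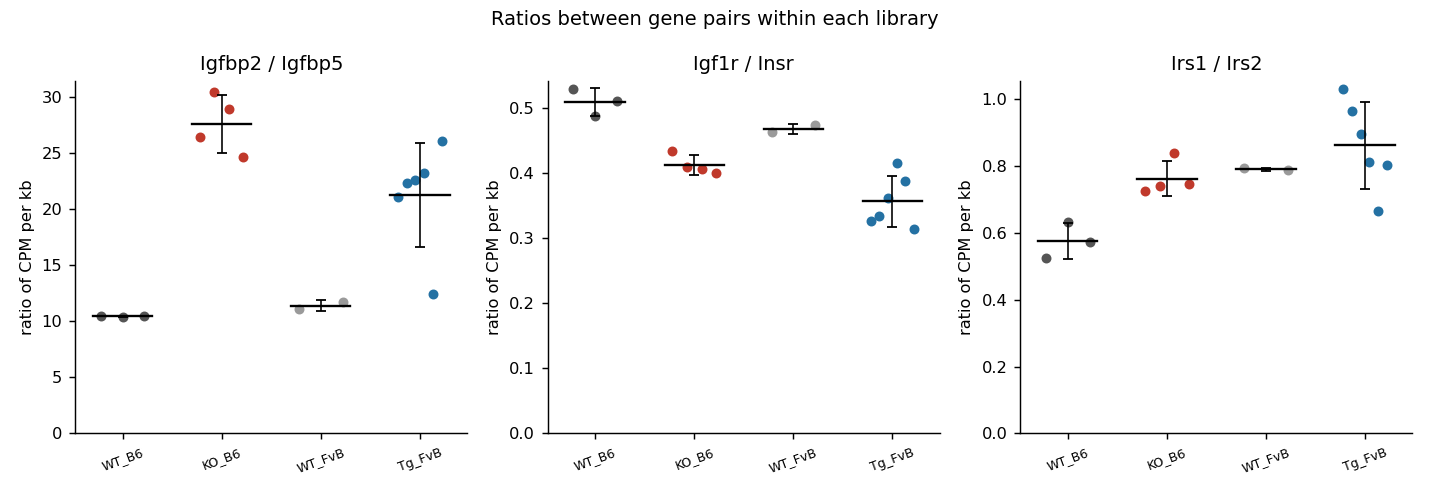
Each point is the ratio of 2 genes in CPM per kb within 1 library, with the group mean (line) and SD (bar), on linear axes from 0. The Igfbp2 to Igfbp5 ratio is 10.4 to 11.7 in both wild types and 12.4 to 30.4 in KO_B6 and Tg_FvB; the Igf1r to Insr ratio of each modified group lies below that of its wild type.

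The ligands were almost absent from these cultures. Igf1 averaged 0.741 CPM in WT_B6, 0.459 in KO_B6, 0.862 in WT_FvB and 0.443 in Tg_FvB, and Igf2 averaged 1.00, 0.486, 0.262 and 0.259 CPM. Neither passed in the knockout or transgene comparison by edgeR. Each comparison had 1 of the 2 at an unadjusted p under 0.05, against 8056 and 2793 of all 15261 genes. Igf2 was lower in WT_FvB than in WT_B6 (log2 difference -1.89 ± 0.65, edgeR adjusted p = 0.0251). Ins1 and Ins2, the mouse insulin genes, had 0 counts in every library. Igfbp1 had at most 2 counts, Igfals at most 4 and the receptor gene Insrr at most 1. Igf2r, which clears IGF2 from the cell surface, averaged 50.2, 55.9, 59.3 and 52.8 CPM in the 4 groups and did not pass in any comparison.

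Of 4 tested genes that govern the cutting of binding proteins, 2 rose and 1 fell in the knockout, where 45.8% of all genes were called. Stc1 and Stc2, secreted inhibitors of the PAPP-A proteases that cut IGFBP4 and IGFBP5, both rose. Stc1 went from 2.34 ± 0.622 to 8.57 ± 1.78 CPM (log2 change 1.90 ± 0.39, edgeR adjusted p = 0.00114) and Stc2 from 5.80 ± 0.149 to 11.9 ± 2.20 CPM (log2 change 1.03 ± 0.15, edgeR adjusted p = 1.00e-04). WT_B6 had the lowest group mean for both, but it alone was low only for Stc2. For Stc1 the lowest Tg_FvB library, at 2.52 CPM, lay within the WT_B6 range of 1.96 to 3.05 CPM. All Tg_FvB libraries were below both WT_FvB libraries for Stc1. Stc1 averaged 13.7 CPM in WT_FvB and 7.43 CPM in Tg_FvB, and Stc2 averaged 14.4 and 13.1 CPM. The proteases themselves, Pappa and Pappa2, had at most 10 counts in any library. Adam9, a membrane metalloprotease, fell from 325.6 to 266.5 CPM (log2 change -0.29 ± 0.09, edgeR adjusted p = 0.0127). It was lower still in WT_FvB, at 223.2 CPM. Htra1, a secreted serine protease, averaged 80.9 CPM in WT_B6 and 68.7 CPM in KO_B6 and did not pass (edgeR adjusted p = 0.151). None of the 4 tested genes of this list passed with the transgene by edgeR. The unadjusted p was under 0.05 for 1 of the 4, against 2793 of all 15261 genes. Igfbpl1, a binding protein-like gene, rose from 1.53 to 2.79 CPM in the knockout (log2 change 0.89 ± 0.21, edgeR adjusted p = 0.00326). It averaged 2.80 CPM in WT_FvB and 3.23 CPM in Tg_FvB, so WT_B6 alone was low, as for Stc2.

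Of 85 further genes of the pathway, 75 were tested, and in the knockout 10 rose and 22 fell, with a median log2 change of -0.09 against 0.02 for all genes. That is 32 of 75, near the 45.8% called among all genes. These calls did not hold with near-identical libraries added up, which leaves 1 wild-type profile. With the transgene none rose and 1 fell by edgeR. An unadjusted p under 0.05 was found for 18 of the 75, against 2793 of all 15261 genes. The list of FOXO factors and genes they are known to activate had 10 of 14 members lower and 1 higher in the knockout, with a median of -0.64, where 20.9% of all genes were lower and 24.8% higher. Among those lower were Fbxo32, a ubiquitin ligase of muscle atrophy (54.8 to 11.4 CPM, log2 change -2.26 ± 0.28, edgeR adjusted p = 3.09e-05), and Sesn3, a sestrin that restrains mTORC1 (228.5 to 67.4 CPM, log2 change -1.76 ± 0.17, adjusted p = 7.06e-06). Pdk4, a kinase that inhibits pyruvate dehydrogenase, fell from 14.6 to 4.21 CPM (log2 change -1.81 ± 0.24, edgeR adjusted p = 5.50e-05). Foxo6, itself a FOXO factor, was the gene that rose (3.77 to 7.62 CPM, log2 change 1.02 ± 0.26, edgeR adjusted p = 0.00464). In the transgenic comparison none of these 14 passed by edgeR. The unadjusted p was under 0.05 for 6 of the 14, against 2793 of all 15261 genes. WT_B6 also stood apart from WT_FvB in this list: 6 of the 14 passed as lower in WT_FvB and 2 as higher (median -0.41). Among all genes 23.5% were lower and 25.4% higher in that comparison. Sesn3 was among those lower and Foxo6 among those higher, while Fbxo32 and Pdk4 did not pass.

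The list of PI3K, AKT and mTOR genes had 2 of 31 higher and 7 lower in the knockout, fewer than the 45.8% called among all genes, and the share of lower calls was near the 20.9% of all genes. The largest falls were of Pik3ip1 and Ddit4. Pik3ip1, an inhibitor of PI3K, went from 86.7 to 23.4 CPM (log2 change -1.88 ± 0.22, edgeR adjusted p = 1.98e-05), and Ddit4, an inhibitor of mTORC1, from 372.4 to 139.5 CPM (log2 change -1.42 ± 0.15, adjusted p = 1.10e-05). The kinase gene Gsk3b fell by 0.55 on the log2 scale. Akt1 and Rps6kb1, which encode the kinases AKT1 and p70 S6 kinase, rose by 0.21 and 0.20. For comparison, WT_FvB had 36.8 CPM of Pik3ip1, 88.4 CPM of Sesn3 and 339.2 CPM of Ddit4.

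Of 22 other adaptors and receptor regulators tested, 4 rose and 4 fell in the knockout, again below the 45.8% of all genes. Sh2b3, an adaptor also named LNK, rose by 0.70 on the log2 scale, Shc1 by 0.49 and the phosphatase gene Ptpn2 by 0.35. Gab1, a docking protein for growth factor receptors, went from 230.2 to 132.3 CPM (log2 change -0.80 ± 0.13, edgeR adjusted p = 2.07e-04). WT_FvB had 106.7 CPM of Gab1, below the knockout mean. Gab2 and Grb2 fell by 0.35 and 0.30 in the knockout on the log2 scale. Irs4, the other gene of this list that fell, was sparse (1.49 to 0.101 CPM, log2 change -3.88 ± 0.47, edgeR adjusted p = 2.79e-05). The 1 further gene of the pathway that passed with the transgene was Socs3, an inhibitor of cytokine and insulin receptor signalling. Socs3 is named here after its values were seen and lies below the 5 CPM set for naming. Its call was not followed under the alternatives. It averaged 2.88 CPM in WT_FvB and 1.57 CPM in Tg_FvB (log2 change -0.89 ± 0.19, edgeR adjusted p = 0.0363).

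**Figure D5:**
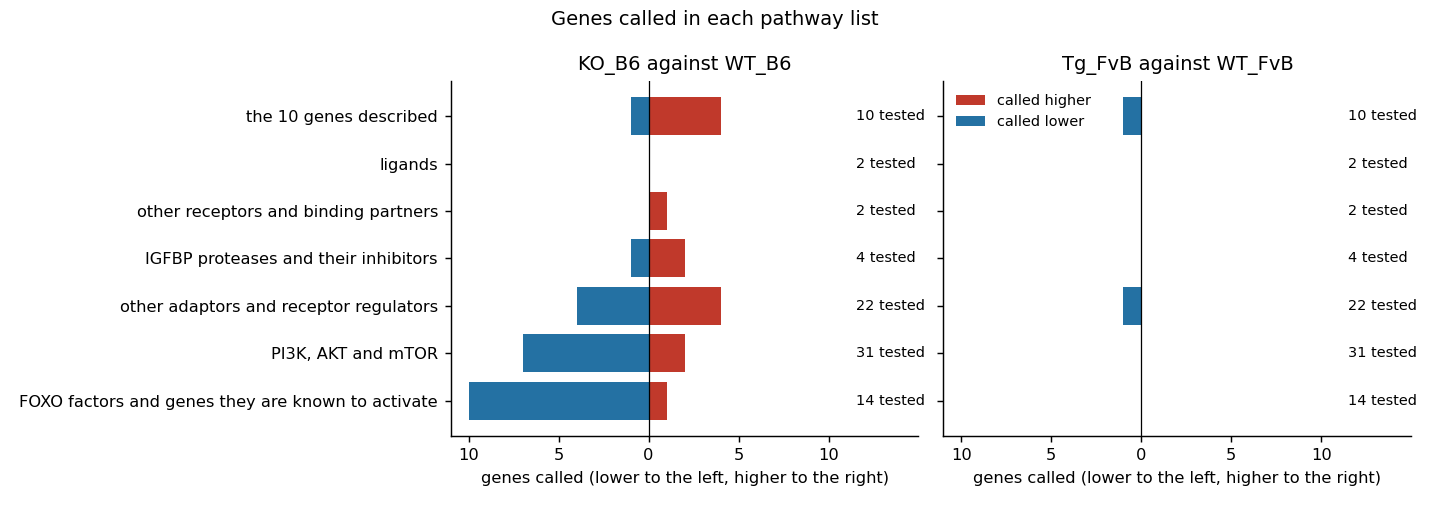
Bars count the genes with an adjusted p under 0.05 in each list, higher to the right and lower to the left, with the number tested beside them. In the knockout the FOXO list has 10 of 14 genes lower and the PI3K, AKT and mTOR list 7 of 31, while in the transgenic comparison 1 of the 10 genes described and 1 adaptor are lower.

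Each gene had other genes with a very similar pattern over the 15 libraries. The measure was Pearson's r of log2(CPM + 1) against the 10679 other genes that averaged 5 CPM or more, and it follows the group structure that all libraries share. Igfbp3 was most like Timm9, a mitochondrial import gene (r = 0.985, 15 libraries), and Igfbp2 most like Dlst, an enzyme gene of the citric acid cycle (r = 0.984). Igfbp5 was most like Dbp, a clock-controlled transcription factor gene that averaged 9.68, 5.88, 14.5 and 9.08 CPM in WT_B6, KO_B6, WT_FvB and Tg_FvB (r = 0.967). For Igf1r the nearest gene was Ptk7 (r = 0.964), for Irs1 Gnpat (r = 0.956), for Insr Cacna2d1 (r = 0.946), for Igfbp4 Smc1a (r = 0.945) and for Irs2 Sbf1 (r = 0.938). The sparsely counted Igfbp7 and Igfbp6 reached 0.848 with Cep170 and 0.729 with AA474408, and at such counts these are no finding.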

How the data were processed

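RNA of 15 neurosphere libraries was measured by paired-end sequencing of 66 bp reads. The authors deposited raw counts per gene, made with featureCounts on mm10 per the submitters' processing notes, beside the gene length. The sources used here name no aligner, annotation, strand setting or version. Rows without a gene name (917 per library, 0.450% to 0.545% of counts) were left out.

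Groups follow the genotype and background fields. The main test was edgeR 4.0.16 (R 4.3.3), quasi-likelihood F-test, TMM scaling, filterByExpr with a minimum count of 10, all 15 libraries in 1 model without covariates. This kept 15261 genes and removed 11002. Benjamini-Hochberg adjusted p under 0.05 was called. The fit was tested on simulated data. Standard errors are the log2 change divided by the root of F. Levels are TMM-scaled CPM as mean ± SD. DESeq2 1.42.0 and other settings were tried as alternatives.

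The genes and lists were chosen with earlier results of these data known. From each further list up to 3 rises and 3 falls with a mean of at least 5 CPM are named by size of change, and any gene of the ligand, binding partner and protease lists. Socs3 and Irs4 are named besides, though below 5 CPM. The 1 most alike gene is named for each of the 10. RefSeq promoter windows were matched by gene identifier for 9 of 10 genes.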

Additional observations from a re-analysis of the deposited data

Results flagged for a closer look

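The effects of transgene and knockout differed by the test of the difference itself for Kat6b (2.60 on the log2 scale, transgene effect minus knockout effect), Igfbp2 (-0.60), Igfbp3 (-1.22) and Igfbp4 (-1.25). Their edgeR adjusted p-values are 6.07e-05, 0.0121, 5.87e-04 and 0.00809.

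In 22 groups of 4 or 6 libraries, 1 library stood far from the rest of its group in 3, where chance flags about 1 in 20. KO_B6 replicate 1 was low for Igf1r (gap to the nearest library 0.835 of the range) and for Irs1 (0.840), and KO_B6 replicate 3 was high for Igfbp7 (0.850), a gene with 28 to 43 counts in that group. Without KO_B6 replicate 1 Irs1 still rose.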

How the results depend on the processing

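Depth limits Igfbp6 and Igfbp7 most. Of 605 values of the 10 genes under the alternatives, 569 kept direction and side of the threshold, 9 passed newly, 19 no longer passed and 8 reversed; the cause was not tested. Genes called with the transgene (283) were 722 with DESeq2, 10 with only the compared groups, 10 with litter as a covariate, 638 without Tg_FvB replicates 5 and 6, and 2 to 1763 without 1 library (2 without WT_FvB replicate 1 or 2, 1763 without Tg_FvB replicate 4). Of the 10 genes (1 called) these gave 1, 0, 0, 1 and 0 to 1. Leaving out 1 library gave 5550 to 7132 genes and 5 to 6 of the 10 for the knockout (6982 and 5), 5055 to 6517 and 3 between wild types (7456 and 3), and 3598 to 6760 and 2 to 3 for the difference of effects (5695 and 3). The last gave 2862 and 1 with litter. Fitting the wild types alone gave 10350 genes and 8 of the 10. Adding up near-identical libraries called 5, 0, 0 and 0 genes for knockout, transgene, wild types and difference, and 0 of the 10 in each (edgeR; unadjusted p under 0.05 for 3464, 471, 3706 and 2803 genes, and 4, 2, 3 and 2 of the 10).

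Reversals concerned values near 0, or Igfbp6. For Igfbp7 between wild types (0.00) they were -0.0036 without the count filter, -0.016 with the replicate block and -0.018 with libraries added up, with -0.24 to 0.20 without 1 library. Igfbp6 with the transgene (0.82) became -0.21 with litter. Without 1 library Igfbp3 with the transgene (0.06) ran from -0.024 (without Tg_FvB replicate 4) to 0.13, and the difference for Igfbp5 (-0.07) from -0.13 to 0.016 (without KO_B6 replicate 4).

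The labels do not say that replicate numbers pair the samples. Same-numbered libraries had correlated deviations of -0.01, 0.01 and -0.02 (B6) and 0.16 and -0.03 (FvB). These values cannot decide on pairing, since the WT_FvB deviations mirror each other by construction and the WT_B6 libraries are near-identical. With the replicate block 7587, 333, 8076 and 5703 genes, and 6, 1, 4 and 4 of the 10, were called for knockout, transgene, wild types and difference; the added genes were Igfbp6 (adjusted p = 0.0380), Irs1 (0.0206) and Igfbp7 (0.0405). Litter could not be a covariate between the wild types, and fitting only the compared groups does not apply to the difference.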
